A study of Mus musculus with 12 samples.

Results

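The 41 genes described here are the Wnt ligands of the mouse, their Frizzled, Ror and Ryk receptors, and 9 genes that respond to Wnt signalling or feed back on it. They were found by symbol among the 55228 genes that both count tables list: every symbol of the form Wnt or Fzd followed by a number, which gave 19 ligands and 10 Frizzled genes, plus Ror1, Ror2, Ryk, Axin2, Lef1, Tcf7, Nkd1, Nkd2, Znrf3, Rnf43, Notum and Sp5. Their RNA was measured in mesenchyme of the bladder and of the pelvic urethra of wild-type CD-1 female embryos on embryonic days E14.5 and E18.5, with no treatment, in 4 groups of 3 libraries. Epithelium had been removed after trypsin treatment, each library held the pooled females of 1 litter, and each stage came from other litters. A comparison of bladder with urethral mesenchyme at each stage addressed the stated aim, genes that distinguish the mesenchymes, and the stages were also compared within each compartment.

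Wnt proteins are secreted, lipid-modified signals that bind Frizzled receptors on nearby cells. In the canonical branch, Frizzled and an Lrp co-receptor stabilise beta-catenin, which acts with the DNA-binding factors Lef1 and Tcf7 on target genes such as Axin2. In other branches, Wnt5a and related ligands act through Ror and Ryk receptors on cell polarity and movement. Many target genes dampen the pathway: Axin2 scaffolds the complex that destroys beta-catenin, Nkd1 and Nkd2 bind the Frizzled adaptor Dishevelled, Znrf3 and Rnf43 remove Frizzled from the cell surface, and Notum strips the lipid from Wnt proteins. In the developing bladder and urethra, Wnt signals pass in both directions between epithelium and mesenchyme.

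Levels are TMM-normalised CPM, which set each count against its library's total, given for replicates 1, 2 and 3 in that order, and differences between genes are drawn only from CPM per kilobase of summed exon length. Log2 differences are given ± SE, where the SE is the absolute log2 difference divided by the square root of the test's F statistic. For genes with few counts this SE is approximate. The adjusted p is that of the edgeR quasi-likelihood F test, Benjamini-Hochberg corrected over the 18805 tested genes. They are bladder minus urethral for a compartment difference and E18.5 minus E14.5 for a stage difference. Library totals ranged from 21495169 to 36349777 counts. Mesenchymal markers (5 of 5 listed genes, among them Vim, Pdgfra and Col1a1) were above 0 in all 12 libraries, but so were all 16 epithelial markers. The epithelial markers summed to 1779, 497 and 317 CPM in the E14.5 bladder libraries, 1595, 747 and 848 CPM in the E14.5 urethral, 11186, 10330 and 13601 CPM in the E18.5 bladder and 2925, 4347 and 4246 CPM in the E18.5 urethral libraries. Replicate 1 of both E14.5 groups was the highest of its group, and on the first principal component, which held 52.0% of the variance, it lay nearer the E18.5 libraries than the other 2 of its group. Results that rest on these 2 libraries are therefore given with and without them. In whole-tissue RNA, fewer cells of a type and less RNA per cell cannot be told apart.

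RefSeq promoter windows, 250 bases before to 50 after a start site on GRCm38.p6, were found for 31 of the 41 members. The TCF/LEF motif CTTTGAT, searched on both strands, occurred in 3.73% of all 32851 windows and in 3 of the 39 windows of members, 1 each of Sp5, Wnt5b and Wnt11. The 250 bases before the start site are shown for 4 members with unlike patterns in these data: Axin2 and Sp5, canonical response genes higher in urethral mesenchyme (Sp5 past the threshold at E18.5 only), Nkd2, a response gene higher in E18.5 bladder, and Wnt5b, a ligand called higher in bladder mesenchyme at E14.5 and in urethral mesenchyme at E18.5. Sequences run 5′ to 3′ on the gene's own strand, and capitals mark the motif, 104 bases before the start site in Sp5 and 71 bases before it in Wnt5b. A match is a description of these letters, not of a bound site.
Axin2, plus strand, chr11:108920099-108920348: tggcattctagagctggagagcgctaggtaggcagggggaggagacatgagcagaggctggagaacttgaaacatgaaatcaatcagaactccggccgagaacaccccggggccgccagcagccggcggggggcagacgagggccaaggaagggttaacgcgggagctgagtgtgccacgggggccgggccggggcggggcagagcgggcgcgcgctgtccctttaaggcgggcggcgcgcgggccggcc
Sp5, plus strand, chr2:70474673-70474922: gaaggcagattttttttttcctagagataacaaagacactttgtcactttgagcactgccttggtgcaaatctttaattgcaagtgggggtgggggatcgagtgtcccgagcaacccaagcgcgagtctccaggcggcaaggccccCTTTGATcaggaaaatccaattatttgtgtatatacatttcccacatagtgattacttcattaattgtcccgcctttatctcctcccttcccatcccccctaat
Nkd2, minus strand, chr13:73847632-73847881: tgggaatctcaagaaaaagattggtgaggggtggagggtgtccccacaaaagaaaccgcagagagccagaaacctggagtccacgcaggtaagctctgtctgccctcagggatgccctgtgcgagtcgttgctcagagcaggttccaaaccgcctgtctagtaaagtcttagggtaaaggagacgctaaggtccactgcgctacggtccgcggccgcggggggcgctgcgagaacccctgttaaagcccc
Wnt5b, minus strand, chr6:119449387-119449636: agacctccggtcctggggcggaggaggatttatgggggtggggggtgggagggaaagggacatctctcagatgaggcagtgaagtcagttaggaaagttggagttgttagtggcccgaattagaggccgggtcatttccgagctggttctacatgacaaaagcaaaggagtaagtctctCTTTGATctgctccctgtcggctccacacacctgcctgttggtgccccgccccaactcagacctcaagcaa
The windows of Axin2 and Nkd2 hold no match to these 7 letters, and those of Wnt5b at its other 2 start sites hold none either.

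At E14.5 more tested members were higher in urethral than in bladder mesenchyme, with the ligands Wnt5a, Wnt6 and Wnt10a, the receptors Fzd10, Ror2 and Fzd6 and the response genes Axin2, Lef1 and Rnf43 among them. Of 37 tested members, 14 were higher in urethral and 5 in bladder mesenchyme, against 12.5% and 12.4% of all tested genes. Together 19 were called, against 24.9% of all genes, and 18 had no overlap between the libraries of the compartments, against 37.7%. The other 4 members, Wnt1, Wnt3a, Wnt8a and Wnt8b, had too few counts to be tested, and the count covers tested members only. By role these were 4 ligands, 6 receptors and 4 response genes higher in urethral mesenchyme, and 3 ligands, 1 receptor and 1 response gene higher in bladder mesenchyme. For E18.5, 11 members were higher in urethral and 9 in bladder mesenchyme, against 16.2% and 18.52% of all genes, and each direction held 4 receptors and 3 response genes. The 20 called members stood against 34.8% of all genes, and the 26 members without overlap against 52.1%. The median log2 difference over tested members was -0.51 at E14.5 and 0.30 at E18.5, and that over all genes was -0.0035 and 0.047. The change of the compartment difference between stages was called for 11 members, against 8.71% of all genes, and in 10 of them it went towards bladder, against 4.66%, and in 1 towards urethral mesenchyme, against 4.05%. Without replicate 1 of both E14.5 groups, the E14.5 calls were 19 higher in urethral and 4 in bladder mesenchyme, and 16 changes between stages were called, 15 of them towards bladder. The number of called changes was 7 without E18.5 bladder replicate 1 and 7 without E18.5 urethral replicate 1. The stage and compartment comparisons share libraries, so their calls are not independent of each other.

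**Figure D1:**
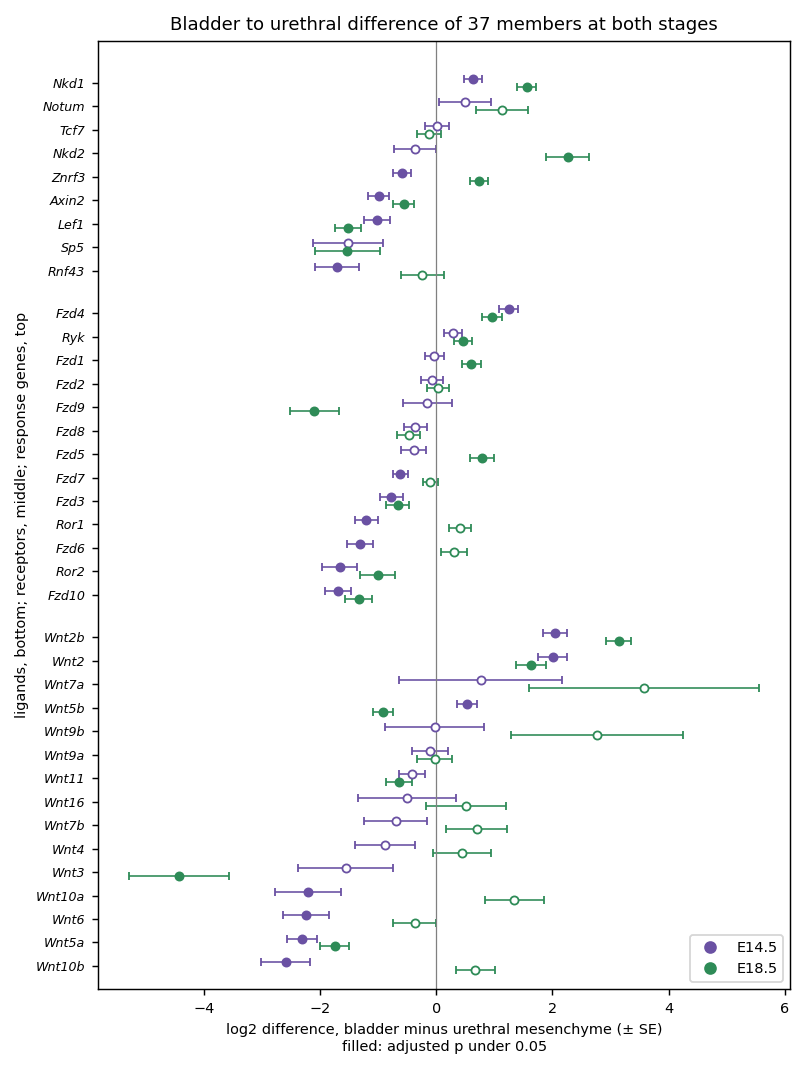
Log2 difference, bladder minus urethral mesenchyme, of the 37 tested members at E14.5 (purple) and E18.5 (green), with SE as bars and filled points where adjusted p is under 0.05. Wnt2, Wnt2b and Fzd4 lie to the right of 0 and Wnt5a, Fzd10, Ror2, Axin2 and Lef1 to the left at both stages, while Wnt5b and Znrf3 are called on opposite sides of 0 at the 2 stages.

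In bladder mesenchyme 12 members were higher at E18.5 and 7 lower, against 23.7% and 22% of all genes, and the 19 called and 23 without overlap between stages stood against 45.7% and 55.8%. The response genes Nkd2 and Znrf3, the ligands Wnt4, Wnt7b, Wnt10a and Wnt10b and the receptors Fzd5 and Fzd6 were among the higher, and Wnt2, Wnt5b, Fzd10, Lef1 and Tcf7 among the lower. Urethral mesenchyme had 6 members higher and 11 lower, against 13.6% and 10.8%, with 17 called against 24.4% and 21 without overlap against 44%. Fzd10, Ror1, Wnt2, Axin2, Lef1 and Tcf7 were among its lower members. The median stage difference over tested members was 0.079 in bladder and -0.31 in urethral mesenchyme, and that over all genes was -0.023 and -0.055. The urethral count of calls, 17, was 8 without E14.5 urethral replicate 3, 9 without E18.5 urethral replicate 2 and 11 without E18.5 urethral replicate 3.

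Among ligands, the leading RNA differed by compartment and stage on the scale of CPM per kilobase. In E14.5 bladder mesenchyme Wnt2 led at 75 CPM per kilobase, 39.9% to 71% of the summed ligand level over the 3 libraries, ahead of Wnt5b at 17.5. In E14.5 urethral mesenchyme the order was Wnt5a at 24.2, Wnt2 at 18.7 and Wnt5b at 12.1, and the shares of Wnt5a (24.1% to 28.2%) and Wnt2 (15.4% to 27.9%) overlapped. In E18.5 bladder mesenchyme Wnt4 led at 43.9, 26.5% to 36.7% of the sum, above Wnt2 at 27 (17.7% to 25.5%). In E18.5 urethral mesenchyme Wnt4 at 32.3 and Wnt5a at 25.2 came first, with shares of 27.8% to 32.4% and 18.53% to 27.6%. Wnt2 stood in the first 2 places in bladder mesenchyme at both stages and in the fourth in E18.5 urethral mesenchyme.

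Wnt2 and Wnt2b, close relatives that signal through beta-catenin, were higher in bladder mesenchyme at both stages. Wnt2 measured 95.2, 204 and 208 CPM in E14.5 bladder and 37.7, 52.1 and 36.7 in E14.5 urethral libraries. At E18.5 it measured 56.4, 63.4 and 62.7 CPM in bladder and 21.7, 17.5 and 19.7 in urethral libraries. Every bladder library exceeded every urethral library of its stage (log2 difference 2.0 ± 0.25, adjusted p = 0.000331 at E14.5, log2 difference 1.63 ± 0.25, adjusted p = 0.000411 at E18.5). Wnt2 also fell with stage in both compartments (bladder log2 difference -1.48 ± 0.25, adjusted p = 0.000551, urethral log2 difference -1.1 ± 0.25, adjusted p = 0.00875). Wnt2b measured 35, 28.2 and 41.5 CPM in bladder against 7.37, 8.29 and 9.72 in urethral libraries at E14.5 (log2 difference 2.04 ± 0.21, adjusted p = 8.46e-05). At E18.5 the values were 51.5, 38.6 and 39.6 CPM against 3.75, 5.73 and 5.26 (log2 difference 3.14 ± 0.22, adjusted p = 1.37e-06). Neither stage had any overlap, and the gap of Wnt2b was wider at E18.5 by 1.1 ± 0.28, adjusted p = 0.0326. Its urethral level fell (log2 difference -0.79 ± 0.21, adjusted p = 0.0159), while the bladder stage difference was not called (0.31 ± 0.20, adjusted p = 0.216). Wnt2b lost its urethral stage call without E14.5 urethral replicate 3 or E18.5 urethral replicate 1 (adjusted p = 0.0616 to 0.0706). Wnt2b lost its stage-by-compartment call without E14.5 bladder replicate 2, E14.5 urethral replicate 3, E18.5 bladder replicate 1 or E18.5 urethral replicates 1 or 3 (adjusted p = 0.0586 to 0.0823).

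Wnt5a, the main ligand of Ror receptors, was higher in urethral mesenchyme at both stages, and its relative Wnt5b changed sides. Wnt5a measured 54.5, 26.7 and 33 CPM in bladder and 222, 156 and 190.3 in urethral libraries at E14.5 (log2 difference -2.32 ± 0.25, adjusted p = 0.000142). At E18.5 the values were 56.4, 60.1 and 59.1 CPM and 245, 153 and 193 (log2 difference -1.75 ± 0.25, adjusted p = 0.000197). The lowest urethral library lay above the highest bladder library at each stage. Wnt5b measured 48.4, 35.3 and 55.3 CPM in bladder and 36.8, 28.1 and 31.4 in urethral libraries at E14.5, where one bladder and one urethral library overlapped (log2 difference 0.53 ± 0.17, adjusted p = 0.0409). Its E18.5 levels were 14.8, 15.1 and 19.3 CPM in bladder and 32.8, 31 and 29.4 in urethral libraries, without overlap (log2 difference -0.92 ± 0.18, adjusted p = 0.00133). The bladder level fell with stage (log2 difference -1.5 ± 0.18, adjusted p = 4.65e-05), the urethral stage difference was -0.04 ± 0.17, adjusted p = 0.873, and the change of the compartment difference was -1.46 ± 0.25, adjusted p = 0.00444. Wnt5b lost its E14.5 compartment call without E14.5 bladder replicates 1 or 3, E14.5 urethral replicates 2 or 3, E18.5 bladder replicate 2 or E18.5 urethral replicates 1, 2 or 3, in a fit of the compared libraries alone, or without replicate 1 of both E14.5 groups (adjusted p = 0.0504 to 0.176). Wnt11, another ligand of the non-canonical branch, measured 20.6, 21.6 and 29.3 CPM in E14.5 bladder, 38, 26.3 and 31.6 in E14.5 urethral, 18, 12.9 and 16 in E18.5 bladder and 20.2, 33.4 and 19.9 in E18.5 urethral libraries. Its E18.5 bladder libraries were all below the urethral ones (log2 difference -0.64 ± 0.23, adjusted p = 0.0469) and below those of E14.5 bladder (log2 difference -0.61 ± 0.23, adjusted p = 0.0483). Wnt11 lost its E18.5 compartment call without E14.5 bladder replicate 2, E14.5 urethral replicate 3, E18.5 bladder replicates 1, 2 or 3 or E18.5 urethral replicate 2, with limma-voom, or with the replicate block (adjusted p = 0.0512 to 0.246). Wnt11 lost its bladder stage call without E14.5 bladder replicates 2 or 3, E14.5 urethral replicate 3, E18.5 bladder replicates 2 or 3 or E18.5 urethral replicates 1 or 3, with limma-voom, or with median-ratio scaling (adjusted p = 0.0506 to 0.199).

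Wnt4, Wnt7b, Wnt10a, Wnt10b and Wnt6 formed a group of ligands that were higher at E18.5 than at E14.5 in bladder mesenchyme. Wnt4 measured 42.7, 14.1 and 9.81 CPM in E14.5 bladder and 217, 123 and 213 in E18.5 bladder libraries (log2 difference 3.06 ± 0.55, adjusted p = 0.00113). In urethral libraries it measured 68, 28.6 and 26.6 CPM at E14.5 and 132, 124 and 150.4 at E18.5 (log2 difference 1.72 ± 0.52, adjusted p = 0.0349). No E14.5 library reached the lowest E18.5 library, and in both E14.5 groups replicate 1 was the highest. Wnt7b measured 17.3, 6.58 and 2.29 CPM in E14.5 bladder, 20.2, 8.94 and 13.4 in E14.5 urethral, 48.6, 40.6 and 57.7 in E18.5 bladder and 26.6, 34.8 and 29.2 in E18.5 urethral libraries, with a called bladder stage difference (log2 difference 2.49 ± 0.56, adjusted p = 0.00417). Its compartment difference was -0.7 ± 0.54, adjusted p = 0.369 at E14.5 and 0.7 ± 0.52, adjusted p = 0.349 at E18.5. Neither Wnt4 nor Wnt7b differed between compartments past the threshold in the fit of all libraries without a replicate block. Wnt4 gained a called E14.5 compartment difference without E14.5 bladder replicate 1, or without replicate 1 of both E14.5 groups (adjusted p = 0.00625 to 0.00877). The replicate block, described in the last section, called this difference too. Wnt4 lost its urethral stage call without E14.5 urethral replicates 2 or 3, E18.5 bladder replicates 1 or 3 or E18.5 urethral replicates 1, 2 or 3, or without a low-count filter (adjusted p = 0.0521 to 0.135). Wnt4 had a log2 difference of 3.96 (bladder stage) without E14.5 bladder replicate 1. Wnt7b gained a called E14.5 compartment difference without E14.5 bladder replicate 1, or without replicate 1 of both E14.5 groups (adjusted p = 0.0121 to 0.0233). Wnt7b gained a called E18.5 compartment difference in a fit of the compared libraries alone (adjusted p = 0.00931). Wnt7b had a log2 difference of 3.47 (bladder stage) without E14.5 bladder replicate 1.

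Wnt10a, a canonical ligand of epithelia and their appendages, measured 2.33, 0.58 and 0.259 CPM in E14.5 bladder and 6.99, 3.82 and 3.85 in E14.5 urethral libraries (log2 difference -2.22 ± 0.57, adjusted p = 0.0156). By E18.5 it measured 21.5, 13.7 and 18.2 CPM in bladder and 5.53, 8.89 and 6.74 in urethral libraries, a difference that missed the threshold (log2 difference 1.34 ± 0.51, adjusted p = 0.0601). Groups did not overlap at either stage, and the change between stages was 3.56 ± 0.76, adjusted p = 0.0151. The bladder level rose with stage (log2 difference 4.09 ± 0.59, adjusted p = 0.000203). Wnt10b, its relative, measured 0.274, 0.166 and 0.259 CPM in E14.5 bladder and 2.003, 0.941 and 1.36 in E14.5 urethral libraries (log2 difference -2.6 ± 0.42, adjusted p = 0.00121). It then measured 6.09, 3.91 and 3.23 CPM in E18.5 bladder and 2.76, 2.78 and 2.74 in E18.5 urethral libraries, which was not called (log2 difference 0.67 ± 0.33, adjusted p = 0.141). Its bladder stage difference was 4.22 ± 0.42, adjusted p = 1.68e-05 and the change of its compartment difference 3.27 ± 0.54, adjusted p = 0.00413. Wnt10a lost its E14.5 compartment call without E14.5 bladder replicate 2, or in a fit of the compared libraries alone (adjusted p = 0.0617 to 0.0622). Wnt10a gained a called E18.5 compartment difference without E14.5 bladder replicates 1 or 3, with DESeq2, with limma-voom, in a fit of the compared libraries alone, with the replicate block, or without replicate 1 of both E14.5 groups (adjusted p = 0.00165 to 0.0283). Wnt10a had log2 differences of -3.53 (E14.5 compartment), 5.4 (bladder stage) and 4.88 (stage-by-compartment) without E14.5 bladder replicate 1.

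Wnt6 measured 6.21, 1.49 and 2.59 CPM in E14.5 bladder against 17.1, 13.8 and 17.8 in E14.5 urethral libraries (log2 difference -2.25 ± 0.39, adjusted p = 0.00199). At E18.5 bladder libraries measured 11, 8.79 and 13.8 CPM and urethral libraries 13.1, 16.1 and 14.2, which overlapped (log2 difference -0.37 ± 0.37, adjusted p = 0.488). The bladder stage difference was 1.71 ± 0.39, adjusted p = 0.00351, the urethral one -0.16 ± 0.37, adjusted p = 0.782, and the change of the compartment difference 1.87 ± 0.53, adjusted p = 0.0486. The 6 urethral libraries of Wnt6 overlapped between stages, and all E18.5 bladder libraries exceeded those of E14.5. Wnt6 lost its stage-by-compartment call without E14.5 bladder replicates 2 or 3, E14.5 urethral replicates 1, 2 or 3, E18.5 bladder replicates 1, 2 or 3 or E18.5 urethral replicates 1, 2 or 3, with median-ratio scaling, or without a low-count filter (adjusted p = 0.0544 to 0.118). Wnt6 had log2 differences of -3.0 (E14.5 compartment), 2.46 (bladder stage) and 2.63 (stage-by-compartment) without E14.5 bladder replicate 1.

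**Figure D2:**
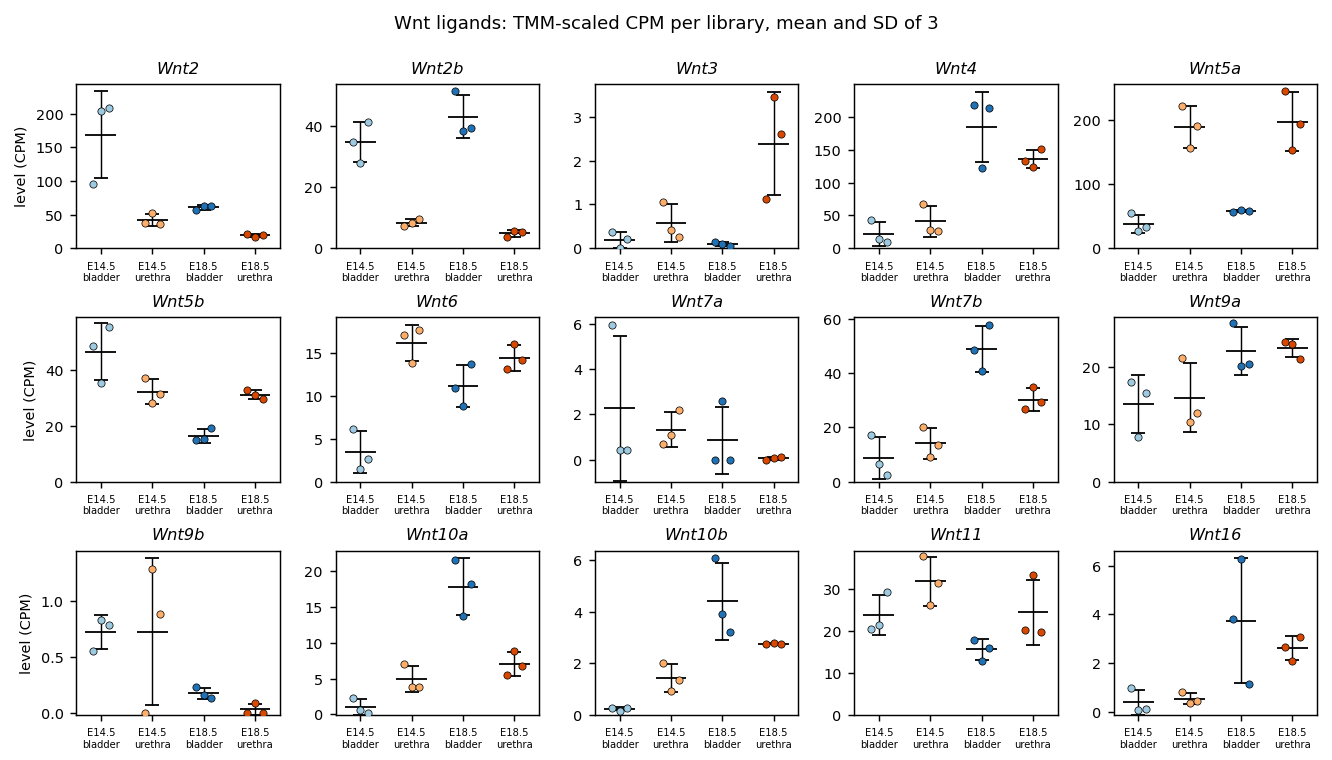
CPM of the 15 tested Wnt ligands in each library (points, replicates 1 to 3 from left to right), with the mean (line) and SD (bars) of each group of 3. Wnt2 and Wnt2b are higher in bladder (blue) and Wnt5a in urethral mesenchyme (orange) at both stages, Wnt4, Wnt7b and Wnt10a have their highest means in E18.5 bladder, and single libraries stand high for Wnt7a.

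The levels of Wnt4, Wnt7b, Wnt10a, Wnt10b and Wnt6 followed the epithelial markers in part. In the E18.5 bladder libraries, where Wnt4, Wnt7b and Wnt10a had their highest group means, the 16 markers summed to 10330 to 13601 CPM, against 2925 to 4347 in E18.5 urethral and 317 to 1779 in E14.5 bladder libraries. Within E14.5 bladder mesenchyme, replicate 1 was the highest for the marker sum and for Wnt4, Wnt7b, Wnt10a and Wnt6 alike. All 16 markers were higher at E18.5 in bladder and 10 of 16 in urethral mesenchyme, and between compartments 7 favoured bladder and 0 urethral mesenchyme at E18.5, 2 and 3 at E14.5. Krt5, the basal keratin, measured 42.7, 3.73 and 2.12 CPM in E14.5 bladder and 499, 136 and 199 CPM in E14.5 urethral libraries. It measured 1438, 755 and 1248 CPM in E18.5 bladder and 714, 984 and 759 CPM in E18.5 urethral libraries. The part of epithelial RNA in the levels of these ligands was not tested. Across the E14.5 groups the mean sum was 864 CPM in bladder and 1063 in urethral libraries. Wnt10a, Wnt10b and Wnt6 had the same order of means with a wider relative gap, and single markers went either way. Krt5 averaged 278 CPM in E14.5 urethral and 16.2 in E14.5 bladder libraries, Trp63 41.1 and 7.05, and Epcam 68.7 and 27.6. Upk3a, with 5.99 and 53.2 CPM, and Upk1b, with 37.8 and 108, had the opposite order. Over the 4 groups Epcam, Cdh1 and Shh, like the sum, had the order of means of Wnt4, Wnt7b, Wnt10a and Wnt10b. Upk3a and Upk1b did not. In the E14.5 urethral libraries, whose sums lay within the range of those of E14.5 bladder, Wnt10a averaged 4.89 ± 1.82 CPM against 1.06 ± 1.11 in bladder, and Wnt10b 1.43 ± 0.535 against 0.233 ± 0.0588. Wnt6 averaged 16.2 ± 2.11 CPM in E14.5 urethral libraries, with 747 to 1595 CPM of markers, and 11.2 ± 2.49 CPM in E18.5 bladder libraries. The E14.5 urethral means of Wnt4 (41.1 ± 23.3 CPM) and Wnt7b (14.2 ± 5.66) also exceeded those of bladder (22.2 ± 17.9 and 8.71 ± 7.71), with overlap. At E18.5, bladder replicate 2, with a marker sum of 10330 CPM, held 123 CPM of Wnt4, near the 124 CPM of the lowest urethral library. The other bladder libraries held 217 and 213 CPM, and the other urethral libraries 132 and 150.4.

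**Figure D3:**
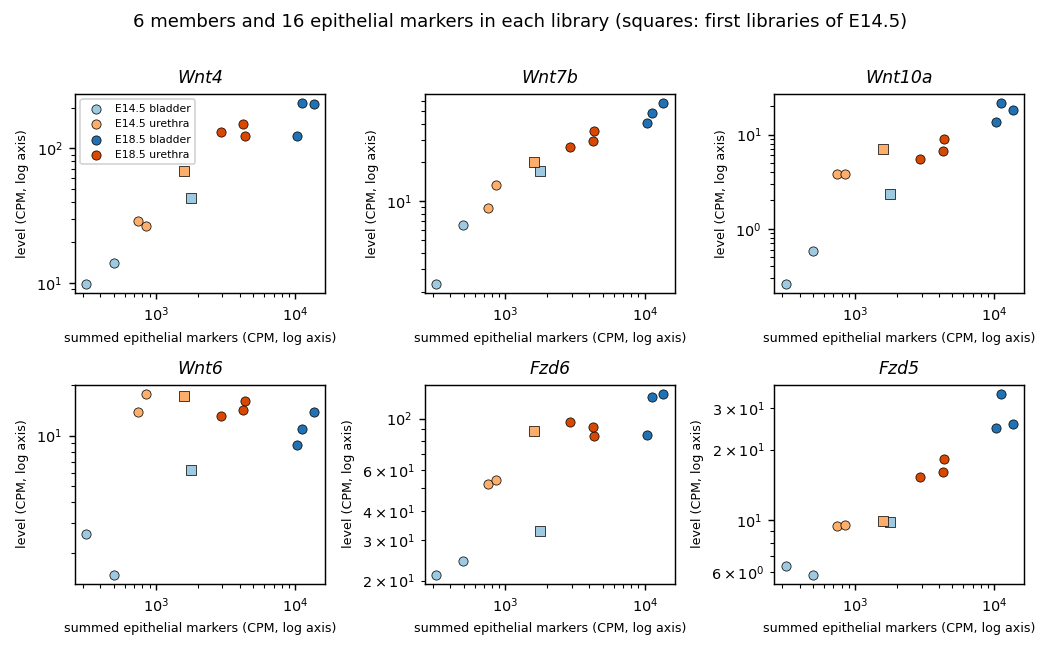
Level of 6 members against the summed CPM of 16 epithelial markers in each of the 12 libraries, both on log axes, coloured by group, with replicate 1 of the E14.5 groups as squares. Within each compartment Wnt4 and Wnt7b are higher at E18.5, where the sum is also higher. The E18.5 bladder library with a sum of 10330 CPM holds 123 CPM of Wnt4, near the lowest E18.5 urethral library (124 CPM). The other E18.5 bladder libraries hold 217 and 213 CPM. Urethral libraries (orange) hold like levels of Wnt6 at marker sums of 747 to 1595 CPM (E14.5) and 2925 to 4347 CPM (E18.5).

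Wnt3, Wnt16 and Wnt9b were low ligands whose levels changed with stage in urethral mesenchyme. Wnt3, a canonical ligand, measured 0.149, 0.107 and 0.064 CPM in E18.5 bladder and 1.12, 3.44 and 2.6 in E18.5 urethral libraries (log2 difference -4.44 ± 0.85, adjusted p = 0.00151). At E14.5 its values were 0.365, 0 and 0.216 CPM in bladder and 1.06, 0.418 and 0.257 in urethral libraries, so that the urethral stage difference was 2.04 ± 0.69, adjusted p = 0.0486. Wnt16 measured 0.959, 0.0828 and 0.0864 CPM in E14.5 bladder, 0.794, 0.366 and 0.44 in E14.5 urethral, 3.81, 6.27 and 1.15 in E18.5 bladder and 2.66, 2.09 and 3.07 in E18.5 urethral libraries. It was higher at E18.5 in both compartments (bladder log2 difference 3.31 ± 0.81, adjusted p = 0.00553, urethral log2 difference 2.3 ± 0.76, adjusted p = 0.044), and every E18.5 library exceeded those of E14.5 in its compartment. Wnt9b, a ligand of epithelial ducts, had 73 counts over the E14.5 urethral libraries, 0 of them in replicate 1, and with 2 counts over those of E18.5. The E18.5 level was 38.9-fold lower, and the stage difference was called (adjusted p = 0.0167). The exact 95% interval of 10.4 to 328 covers counting error only, and is too narrow if both reads of a pair were counted. Without E18.5 urethral replicate 2 the group held 0 counts of Wnt9b, and against a floor of 3 counts over the group its level was at least 19.4-fold lower. Wnt3 lost its urethral stage call without E14.5 bladder replicate 3, E14.5 urethral replicates 2 or 3, E18.5 bladder replicates 1, 2 or 3 or E18.5 urethral replicates 2 or 3 (adjusted p = 0.0576 to 0.169). Wnt3 had a log2 difference of 2.77 (urethral stage) without E14.5 urethral replicate 1. Wnt16 lost its urethral stage call without E14.5 urethral replicates 1, 2 or 3, E18.5 bladder replicate 1 or E18.5 urethral replicates 1, 2 or 3, or without a low-count filter (adjusted p = 0.0518 to 0.138). Wnt16 had a log2 difference of 5.39 (bladder stage) without E14.5 bladder replicate 1. Wnt9b lost its urethral stage call without E14.5 urethral replicate 2 or E18.5 urethral replicates 1 or 3, or with limma-voom (adjusted p = 0.053 to 0.134). Wnt9b had a log2 difference of -4.12 (urethral stage) without E14.5 urethral replicate 2. Wnt9b had a log2 difference of -4.2 (urethral stage) without E18.5 urethral replicate 1.

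Wnt9a, expressed at 13.5 ± 5.06 CPM in E14.5 bladder and 14.6 ± 6.03 CPM in E14.5 urethral mesenchyme, was not called in any comparison, and its E18.5 means were 22.7 ± 4.21 and 23.2 ± 1.61 CPM. Wnt9a gained a called bladder stage difference without E14.5 bladder replicate 1 or E14.5 urethral replicate 1, with DESeq2, with limma-voom, or without replicate 1 of both E14.5 groups (adjusted p = 0.0103 to 0.0425). Wnt9a gained a called urethral stage difference without E14.5 urethral replicate 1, with limma-voom, or without replicate 1 of both E14.5 groups (adjusted p = 0.0114 to 0.0469). Wnt7a rested on single libraries, with 5.94, 0.414 and 0.432 CPM in E14.5 bladder, 0.68, 1.1 and 2.2 in E14.5 urethral, 0, 2.57 and 0 in E18.5 bladder and 0, 0.0819 and 0.117 in E18.5 urethral libraries, and passed the threshold nowhere. Wnt7a gained a called bladder stage difference without E18.5 bladder replicate 2 (adjusted p = 0.0144). Wnt7a gained a called urethral stage difference without E18.5 bladder replicate 2, or in a fit of the compared libraries alone (adjusted p = 0.00918 to 0.0451). Of the untested ligands, Wnt8b had 2 counts in 1 E18.5 urethral library and 0 in the others, Wnt1 and Wnt8a had at most 2 counts in any library, and Wnt3a had at most 4. At these depths 3 counts correspond to 0.0761 to 0.161 CPM, a limit for counting error only, and too low if both reads of a pair were counted.

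Among the Frizzled genes, Fzd1, Fzd2 and Fzd7, receptors able to carry canonical signals, had the highest levels per length in all 4 groups. Ryk was close to Fzd7 in bladder mesenchyme, at 31.2 against 31.4 CPM per kilobase at E14.5 and 32 against 30.6 at E18.5. In E14.5 bladder mesenchyme Fzd1, Fzd2 and Fzd7 stood at 62.5, 52.9 and 31.4 CPM per kilobase, and in E18.5 urethral mesenchyme at 38.6, 37.5 and 32.9. The shares of Fzd1 (22.6% to 26.9%) and Fzd2 (23% to 27%) overlapped in the last group. Fzd1 measured 244, 265 and 279 CPM in E14.5 bladder, 246, 238 and 326 in E14.5 urethral, 293, 215 and 228 in E18.5 bladder and 185, 136 and 166 in E18.5 urethral libraries. It was lower in E18.5 urethral than in E18.5 bladder (log2 difference 0.6 ± 0.16, adjusted p = 0.0122) or E14.5 urethral mesenchyme (log2 difference -0.73 ± 0.16, adjusted p = 0.00728). Fzd7 measured 141, 146 and 139 CPM in E14.5 bladder and 238, 172 and 246 in E14.5 urethral libraries, with no overlap (log2 difference -0.62 ± 0.13, adjusted p = 0.00629). The E18.5 levels were 150.01, 128 and 138 CPM in bladder and 163, 137 and 148 in urethral libraries, after a fall in the latter (log2 difference -0.55 ± 0.13, adjusted p = 0.0116). Fzd2 measured 181, 213 and 187 CPM in E14.5 bladder, 245, 147 and 221 in E14.5 urethral, 171, 136 and 113 in E18.5 bladder and 148, 141 and 123 in E18.5 urethral libraries. Its urethral stage difference was called (log2 difference -0.57 ± 0.19, adjusted p = 0.0438) although 1 library of each stage overlapped. Fzd1 lost its E18.5 compartment call without E18.5 bladder replicate 1 or E18.5 urethral replicate 2 (adjusted p = 0.0561 to 0.0612). Fzd7 lost its urethral stage call without E14.5 urethral replicate 3 or E18.5 urethral replicate 2 (adjusted p = 0.058 to 0.061). Fzd2 lost its urethral stage call without E14.5 bladder replicates 2 or 3, E14.5 urethral replicates 1 or 3, E18.5 bladder replicate 2 or E18.5 urethral replicates 1, 2 or 3, with DESeq2, with median-ratio scaling, in a fit of the compared libraries alone, or without replicate 1 of both E14.5 groups (adjusted p = 0.0505 to 0.151).

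Fzd10, Ror2 and Fzd3 were higher in urethral mesenchyme at both stages, and Fzd4 in bladder mesenchyme. Fzd10 measured 19, 17.3 and 12.8 CPM in E14.5 bladder and 54.8, 43.1 and 61.3 in E14.5 urethral libraries (log2 difference -1.7 ± 0.23, adjusted p = 0.00043). At E18.5 it had fallen in both compartments, to 6.35, 6.81 and 6.11 CPM in bladder and 22, 11.5 and 15.1 in urethral libraries (log2 difference -1.34 ± 0.23, adjusted p = 0.000783). The stage difference was -1.35 ± 0.24, adjusted p = 0.000588 in bladder and -1.71 ± 0.23, adjusted p = 0.000516 in urethral mesenchyme, and the change of its compartment difference was 0.36 ± 0.32, adjusted p = 0.544. Ror2, a receptor tyrosine kinase for Wnt5a, measured 39.8, 16 and 19.8 CPM in E14.5 bladder and 82.2, 61.5 and 95.9 in E14.5 urethral libraries (log2 difference -1.66 ± 0.30, adjusted p = 0.00268). Its E18.5 values were 29.7, 20.04 and 23.3 CPM in bladder and 55.4, 42.4 and 49.6 in urethral libraries (log2 difference -1.01 ± 0.30, adjusted p = 0.0196). Groups of Fzd10 and Ror2 did not overlap at either stage. Ror2 lost its E18.5 compartment call without E18.5 bladder replicates 2 or 3 or E18.5 urethral replicate 1, or without a low-count filter (adjusted p = 0.0566 to 0.0771).

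Fzd3, a receptor of the polarity branch, measured 41.4, 35.3 and 43.3 CPM in E14.5 bladder against 57.5, 64.7 and 83.6 in E14.5 urethral libraries (log2 difference -0.78 ± 0.20, adjusted p = 0.014). At E18.5 its values were 37.6, 28.3 and 23.6 CPM and 56.8, 46.7 and 38.5 (log2 difference -0.67 ± 0.20, adjusted p = 0.0192). Fzd4, the receptor of endothelium and of the non-Wnt ligand Norrin, measured 65.4, 89.6 and 85 CPM in E14.5 bladder and 29.9, 32.2 and 39.3 in E14.5 urethral libraries (log2 difference 1.24 ± 0.17, adjusted p = 0.000397). Levels at E18.5 were 125, 91.2 and 90.2 CPM in bladder and 52.4, 57.6 and 47.7 in urethral libraries (log2 difference 0.96 ± 0.16, adjusted p = 0.000702), and its urethral level rose (log2 difference 0.64 ± 0.16, adjusted p = 0.0154). The direction of Fzd4 was thus opposite to that of Fzd3, with no overlap for either gene at either stage. Of 5 endothelial markers, 1 was higher in bladder and 0 in urethral mesenchyme at E14.5, 0 and 2 at E18.5. Fzd3 lost its E14.5 compartment call without E14.5 bladder replicate 2 or E14.5 urethral replicate 3 (adjusted p = 0.0562 to 0.0637). Fzd3 lost its E18.5 compartment call without E18.5 bladder replicates 2 or 3 or E18.5 urethral replicate 1 (adjusted p = 0.0629 to 0.0931). Fzd4 lost its urethral stage call without E18.5 urethral replicate 2 (adjusted p = 0.0626).

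Ror1, Fzd6 and Fzd5 changed their compartment difference between stages. Ror1, the relative of Ror2, measured 79.4, 62.7 and 64.6 CPM in E14.5 bladder and 139, 134 and 204 in E14.5 urethral libraries (log2 difference -1.21 ± 0.19, adjusted p = 0.00113). At E18.5 it measured 55.9, 42.6 and 36.2 CPM in bladder and 35.2, 29.6 and 37 in urethral libraries, which overlapped (log2 difference 0.4 ± 0.19, adjusted p = 0.13). Its urethral level fell by more than its bladder level (urethral -2.23 ± 0.20, adjusted p = 0.000112, bladder -0.62 ± 0.19, adjusted p = 0.0194, change of the compartment difference 1.61 ± 0.27, adjusted p = 0.0045). Fzd6 measured 32.7, 24.2 and 21.2 CPM in E14.5 bladder and 87.9, 52.4 and 54.4 in E14.5 urethral libraries (log2 difference -1.32 ± 0.23, adjusted p = 0.00181). It measured 123, 85.1 and 128 CPM in E18.5 bladder and 96.7, 84 and 92.3 in E18.5 urethral libraries (log2 difference 0.3 ± 0.22, adjusted p = 0.328), after a rise in bladder (log2 difference 2.11 ± 0.23, adjusted p = 3.18e-05, change of the compartment difference 1.62 ± 0.32, adjusted p = 0.00929). All 3 bladder libraries of E18.5 exceeded those of E14.5. Ror1 lost its bladder stage call without E14.5 bladder replicate 1 or E18.5 bladder replicates 2 or 3, or without replicate 1 of both E14.5 groups (adjusted p = 0.0598 to 0.0844).

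Fzd5 measured 9.78, 5.84 and 6.35 CPM in E14.5 bladder and 9.9, 9.44 and 9.5 in E14.5 urethral libraries (log2 difference -0.39 ± 0.21, adjusted p = 0.185). Its E18.5 levels were 34.7, 24.7 and 25.8 CPM in bladder and 15.2, 18.2 and 16 in urethral libraries, without overlap (log2 difference 0.79 ± 0.20, adjusted p = 0.00915). It rose with stage in bladder (log2 difference 1.96 ± 0.21, adjusted p = 2.75e-05) and urethral mesenchyme (log2 difference 0.78 ± 0.21, adjusted p = 0.0169), and the change of its compartment difference was 1.18 ± 0.29, adjusted p = 0.0262. Of its exon bases, 17.8% lie under exons of a gene on the other strand, and whether counting used strand is not given in the sources used here. Fzd5 and Fzd6, like Wnt4, had their highest group means in E18.5 bladder libraries, in which the epithelial marker sum was also highest, and the part of epithelial RNA in this was not tested. Fzd5 gained a called E14.5 compartment difference without E14.5 bladder replicate 1, or without replicate 1 of both E14.5 groups (adjusted p = 0.0234 to 0.0416). Fzd5 lost its urethral stage call without E14.5 urethral replicate 3 or E18.5 urethral replicate 2 (adjusted p = 0.0606 to 0.0658). Fzd5 lost its stage-by-compartment call without E14.5 bladder replicates 2 or 3, E14.5 urethral replicate 3, E18.5 bladder replicate 1 or E18.5 urethral replicates 1 or 3 (adjusted p = 0.0526 to 0.0704).

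Fzd9, a low receptor gene, measured 4.49, 3.6 and 1.99 CPM in E18.5 urethral libraries against 0.822, 1.18 and 0.384 in E18.5 bladder (log2 difference -2.11 ± 0.42, adjusted p = 0.00192) and 1.1, 1.02 and 1.03 in E14.5 urethral libraries (log2 difference 1.68 ± 0.41, adjusted p = 0.011). All 3 E18.5 urethral libraries exceeded every other library. Ryk, a receptor with an inactive kinase domain, measured 121, 148 and 156 CPM in E14.5 bladder, 133, 92.2 and 125 in E14.5 urethral, 168, 141 and 125 in E18.5 bladder and 112, 102 and 102 in E18.5 urethral libraries. Only its E18.5 compartment difference passed the threshold in the fit of all libraries (log2 difference 0.46 ± 0.16, adjusted p = 0.0351). Fzd8 passed nowhere in that fit, with means of 15.7 ± 1.5, 20.3 ± 4.97, 18 ± 3.29 and 25.2 ± 2.31 CPM in the same order. Ryk lost its E18.5 compartment call without E18.5 bladder replicates 1 or 2 or E18.5 urethral replicates 1, 2 or 3, with median-ratio scaling, or with the replicate block (adjusted p = 0.0501 to 0.139). Fzd8 gained a called E14.5 compartment difference without E14.5 urethral replicate 2 (adjusted p = 0.0363). Fzd8 gained a called E18.5 compartment difference without E14.5 urethral replicate 2 or E18.5 bladder replicate 1, in a fit of the compared libraries alone, or with the replicate block (adjusted p = 0.0251 to 0.0406).

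**Figure D4:**
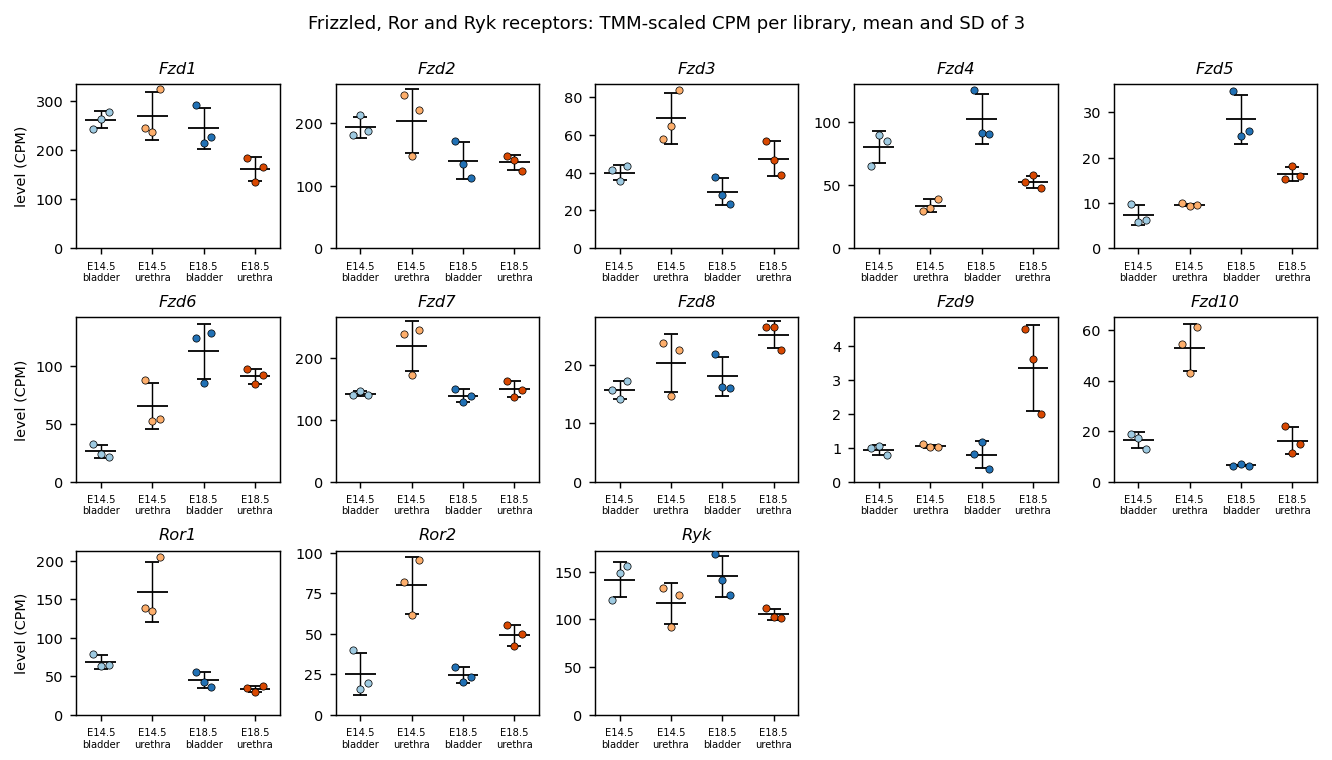
CPM of the 13 Frizzled, Ror and Ryk genes in each library (points, replicates 1 to 3 from left to right), with group mean and SD. Fzd10, Ror2 and Fzd3 are higher in urethral mesenchyme (orange) at both stages, Fzd4 in bladder mesenchyme (blue), and Ror1 is highest in E14.5 urethral libraries.

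The response genes did not move as 1 group. Axin2 and Lef1 were higher in urethral mesenchyme at both stages, and Nkd1 in bladder mesenchyme at both. Axin2 measured 33.9, 25.6 and 23.6 CPM in E14.5 bladder and 49.3, 51.1 and 65.6 in E14.5 urethral libraries (log2 difference -1.0 ± 0.18, adjusted p = 0.00204). By E18.5 it measured 20.8, 25.7 and 20.7 CPM in bladder and 39.1, 29.1 and 31 in urethral libraries (log2 difference -0.57 ± 0.18, adjusted p = 0.0249). The urethral level fell with stage (log2 difference -0.74 ± 0.18, adjusted p = 0.00983). Lef1 measured 15.5, 19.8 and 12.6 CPM in E14.5 bladder and 34.7, 28.2 and 34.5 in E14.5 urethral libraries (log2 difference -1.02 ± 0.22, adjusted p = 0.00631). It measured 8.33, 5.63 and 6.01 CPM in E18.5 bladder and 23.8, 14.9 and 18.7 in E18.5 urethral libraries (log2 difference -1.52 ± 0.23, adjusted p = 0.000282), and was lower at E18.5 in bladder (log2 difference -1.26 ± 0.23, adjusted p = 0.000777) and urethral mesenchyme (log2 difference -0.76 ± 0.22, adjusted p = 0.0253). Neither gene's groups overlapped between compartments. Exons on the other strand cover 13.7% of the exon bases of Lef1 and 3.8% of those of Axin2. Axin2 lost its E18.5 compartment call without E18.5 bladder replicates 1 or 3 or E18.5 urethral replicate 1, or with the replicate block (adjusted p = 0.0559 to 0.119). Axin2 lost its urethral stage call without E14.5 urethral replicate 3 (adjusted p = 0.054). Lef1 lost its urethral stage call without E14.5 urethral replicates 1 or 3 or E18.5 urethral replicates 2 or 3, or without replicate 1 of both E14.5 groups (adjusted p = 0.0568 to 0.107).

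Tcf7, the other DNA-binding factor of the list, fell with stage and did not differ between compartments past the threshold. It measured 29.6, 34.7 and 28.8 CPM in E14.5 bladder, 27.9, 26.9 and 37.6 in E14.5 urethral, 15.3, 13.4 and 12.3 in E18.5 bladder and 19.6, 10.8 and 14.4 in E18.5 urethral libraries. Each E18.5 library was below every E14.5 library (bladder log2 difference -1.18 ± 0.21, adjusted p = 0.00068, urethral log2 difference -1.04 ± 0.21, adjusted p = 0.00439). Sp5, a zinc finger factor whose window above holds the TCF/LEF motif, measured 1.46, 0.166 and 0.259 CPM in E14.5 bladder and 2.49, 1.2 and 1.72 in E14.5 urethral libraries (log2 difference -1.53 ± 0.60, adjusted p = 0.081). The E18.5 levels were 1.12, 1.39 and 1.38 CPM in bladder and 3.27, 4.46 and 3.59 in urethral libraries, without overlap (log2 difference -1.54 ± 0.56, adjusted p = 0.0498). The overlap at E14.5 came from bladder replicate 1. Sp5 gained a called E14.5 compartment difference without E14.5 bladder replicate 1, with DESeq2, with limma-voom, with the replicate block, or without replicate 1 of both E14.5 groups (adjusted p = 0.000684 to 0.0402). Sp5 lost its E18.5 compartment call without E14.5 urethral replicate 3, E18.5 bladder replicates 1, 2 or 3 or E18.5 urethral replicates 1, 2 or 3 (adjusted p = 0.0632 to 0.131).

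Nkd1 measured 116, 109.9 and 93.1 CPM in E14.5 bladder and 83.4, 55.9 and 66.9 in E14.5 urethral libraries (log2 difference 0.63 ± 0.16, adjusted p = 0.014). At E18.5 the gap was wider, with 172, 171 and 132 CPM in bladder and 53.7, 48.3 and 59.9 in urethral libraries (log2 difference 1.55 ± 0.16, adjusted p = 2.34e-05, change 0.92 ± 0.23, adjusted p = 0.0254). Nkd2 measured 34.2, 12.2 and 13.5 CPM in E14.5 bladder and 28.2, 21.9 and 27.5 in E14.5 urethral libraries, which overlapped (log2 difference -0.37 ± 0.36, adjusted p = 0.478). Levels at E18.5 were 106, 103 and 63.5 CPM in bladder and 22.2, 13.9 and 20.5 in urethral libraries (log2 difference 2.26 ± 0.37, adjusted p = 0.000724, change 2.63 ± 0.51, adjusted p = 0.0108). Both Nkd genes rose with stage in bladder mesenchyme (Nkd1 0.58 ± 0.16, adjusted p = 0.0108, Nkd2 2.18 ± 0.37, adjusted p = 0.000702). All 6 listed smooth muscle markers were higher at E18.5 in bladder mesenchyme, and higher there than in E18.5 urethral mesenchyme. They summed to 6106 to 8150.4 CPM in E14.5 bladder, 1563 to 3458 in E14.5 urethral, 21625 to 40342 in E18.5 bladder and 2401 to 2696 in E18.5 urethral libraries. At E14.5 Nkd1 had the order of these sums (means of 106 CPM in bladder and 68.7 in urethral libraries). Nkd2 had the opposite order of means (20 ± 12.4 and 25.8 ± 3.46 CPM), with overlap. The part of smooth muscle RNA in the Nkd levels was not tested. Nkd1 lost its bladder stage call without E14.5 bladder replicate 3 (adjusted p = 0.0544). Nkd1 lost its stage-by-compartment call without E14.5 bladder replicate 3, E18.5 bladder replicates 1 or 2 or E18.5 urethral replicates 1 or 2 (adjusted p = 0.0551 to 0.0695). Nkd2 gained a called E14.5 compartment difference without E14.5 bladder replicate 1, or without replicate 1 of both E14.5 groups (adjusted p = 0.0115 to 0.0242). Nkd2 had log2 differences of 2.83 (bladder stage) and 3.28 (stage-by-compartment) without E14.5 bladder replicate 1.

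Znrf3 and Rnf43, paired ubiquitin ligases, were higher in urethral mesenchyme at E14.5. Znrf3 measured 18.9, 21.8 and 16.6 CPM in E14.5 bladder and 26.9, 30.4 and 29.2 in E14.5 urethral libraries (log2 difference -0.6 ± 0.15, adjusted p = 0.0151). At E18.5 the order was the opposite, with 44.1, 36.4 and 35.2 CPM in bladder and 27, 19.7 and 23.2 in urethral libraries (log2 difference 0.73 ± 0.15, adjusted p = 0.0026). Groups did not overlap at either stage, and the change was 1.32 ± 0.22, adjusted p = 0.00412, with a rise in bladder mesenchyme (log2 difference 1.01 ± 0.15, adjusted p = 0.000239). Rnf43 measured 11.3, 3.73 and 3.63 CPM in E14.5 bladder and 19.1, 20.3 and 21.7 in E14.5 urethral libraries (log2 difference -1.71 ± 0.38, adjusted p = 0.00762). At E18.5 its values of 15.6, 10.3 and 18 CPM in bladder and 20.3, 14.9 and 17 in urethral libraries overlapped (log2 difference -0.24 ± 0.37, adjusted p = 0.663), after a rise in bladder (log2 difference 1.24 ± 0.38, adjusted p = 0.0186). Notum measured 14.1, 7.91 and 3.54 CPM in E14.5 bladder, 2.76, 8.29 and 7.01 in E14.5 urethral, 9.78, 8.68 and 8.47 in E18.5 bladder and 3.98, 4.34 and 3.94 in E18.5 urethral libraries. It was not called in the fit of all libraries, and 38.1% of its exon bases lie under exons of the other strand. Znrf3 lost its E14.5 compartment call without E14.5 bladder replicate 3 (adjusted p = 0.0695). Rnf43 lost its bladder stage call without E14.5 bladder replicates 2 or 3 or E18.5 bladder replicate 3, or in a fit of the compared libraries alone (adjusted p = 0.0664 to 0.0721). Rnf43 had log2 differences of -2.48 (E14.5 compartment) and 2.01 (bladder stage) without E14.5 bladder replicate 1. Notum gained a called E18.5 compartment difference without E14.5 bladder replicates 1 or 3 or E14.5 urethral replicate 1, with DESeq2, in a fit of the compared libraries alone, or without replicate 1 of both E14.5 groups (adjusted p = 0.00183 to 0.0363). Notum gained a called urethral stage difference without replicate 1 of both E14.5 groups (adjusted p = 0.0397). Notum gained a called stage-by-compartment difference without replicate 1 of both E14.5 groups (adjusted p = 0.0323).

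**Figure D5:**
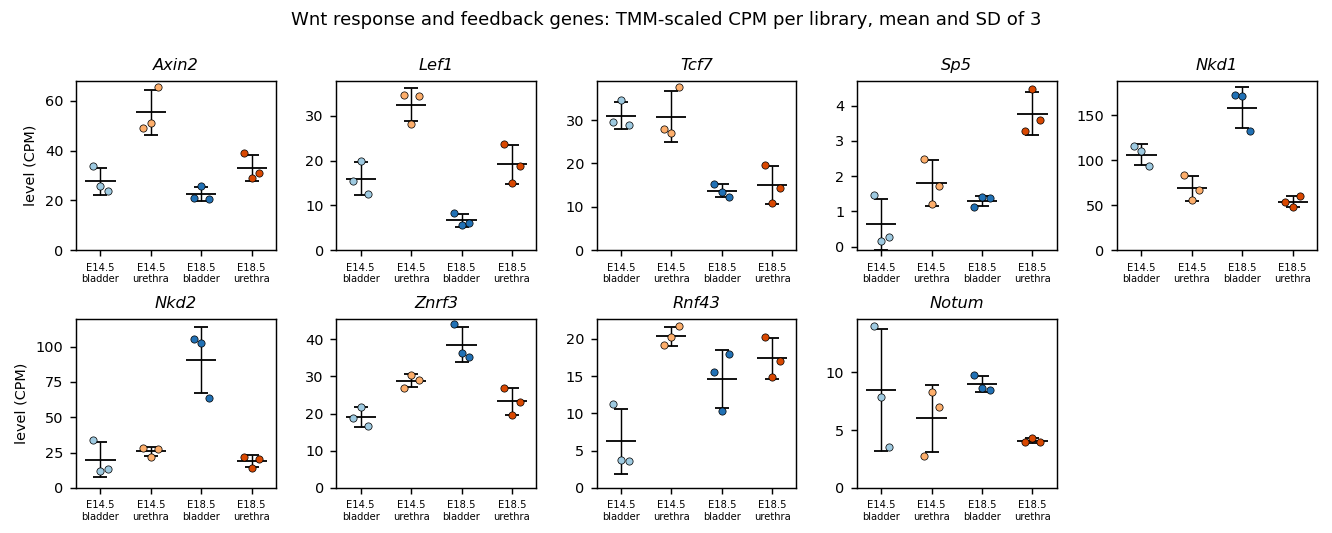
CPM of the 9 Wnt response and feedback genes in each library (points, replicates 1 to 3 from left to right), with group mean and SD. Axin2 and Lef1 are higher in urethral mesenchyme (orange) and Nkd1 in bladder mesenchyme (blue) at both stages, Nkd2 and Znrf3 are highest in E18.5 bladder, and Tcf7 is lower at E18.5 in both compartments.

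Genes that modulate the pathway outside the cell also differed between the compartments. The list of antagonists held 14 genes, 12 of them secreted and 2 the Dkk receptors Kremen1 and Kremen2. Of the 13 tested, 3 were higher in urethral and 3 in bladder mesenchyme at E14.5, 7 and 1 at E18.5, against 12.5% and 12.4% of all genes at E14.5 and 16.2% and 18.52% at E18.5. The median log2 difference was -0.5 and -1.25, against -0.0035 and 0.047 over all genes. More abundant genes of the list went either way at E14.5. Sfrp1 averaged 264 CPM in bladder and 135 in urethral libraries, Dkk3 138 and 68.6, Sostdc1 32 and 5.74, and Dkk2 17.3 and 122. The genes named next were chosen by size of difference, and all were higher in urethral mesenchyme. Wif1, which binds Wnt proteins, measured 1.37, 0.248 and 0.605 CPM in E14.5 bladder and 3.93, 2.98 and 3.38 in E14.5 urethral libraries (log2 difference -2.21 ± 0.47, adjusted p = 0.00586), and its E18.5 means were 0.33 ± 0.103 and 6.19 ± 1.8 CPM (log2 difference -4.26 ± 0.52, adjusted p = 6.98e-05). Sfrp5, a secreted Frizzled-related inhibitor, measured 0.448, 0.161 and 0.32 CPM in E18.5 bladder and 1.95, 9.13 and 5.23 in E18.5 urethral libraries (log2 difference -4.07 ± 0.74, adjusted p = 0.0011). Kremen2, a Dkk co-receptor, was the member of this list with the widest gap, with 0.149, 0.322 and 0.192 CPM in E18.5 bladder and 11.9, 9.34 and 9.31 in E18.5 urethral libraries (log2 difference -5.55 ± 0.52, adjusted p = 1.09e-05). Wif1 had a log2 difference of -3.01 (E14.5 compartment) without E14.5 bladder replicate 1. Sfrp5 had a log2 difference of -3.48 (E18.5 compartment) without E18.5 urethral replicate 2.

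R-spondins bind Lgr receptors and enhance Wnt signals by taking Znrf3 and Rnf43 from the cell surface. Of 6 tested genes of this list, 3 were higher in urethral and 1 in bladder mesenchyme at E14.5, 3 and 2 at E18.5, beside the same shares of all genes (12.5% and 12.4%, then 16.2% and 18.52%). Rspo1 measured 43.4, 34.5 and 51 CPM in E18.5 bladder and 4.08, 3.69 and 3.97 in E18.5 urethral libraries (log2 difference 3.45 ± 0.42, adjusted p = 7.26e-05). Mesothelial markers, 4 of 5 of them higher in E18.5 bladder, summed to 933 to 1187 CPM in E18.5 bladder and 92.1 to 149 in E18.5 urethral libraries. In E14.5 bladder their sums of 478, 109.7 and 310.2 CPM ranked as Rspo1 did (17.7, 4.6 and 8.9 CPM). In E14.5 urethral libraries they summed to 27.1, 76.1 and 79.2 CPM, and Rspo1 measured 5.67, 9.2 and 10.4 CPM. The E14.5 means of bladder and urethral libraries were 299 and 60.8 CPM for the marker sum, but 10.4 and 8.43 CPM for Rspo1. The part of mesothelial RNA in the level of Rspo1 was not tested. Rspo2 measured 9.04, 1.78 and 2.9 CPM in E14.5 bladder and 48.9, 26.8 and 47.1 in E14.5 urethral libraries (log2 difference -3.17 ± 0.49, adjusted p = 0.00122), then 1.12, 0.643 and 0.959 CPM in E18.5 bladder and 22.6, 24.2 and 26.7 in E18.5 urethral libraries (log2 difference -4.72 ± 0.55, adjusted p = 7.62e-05). Lgr5 was on the urethral side, with 1.72, 1.66 and 2.11 CPM in E18.5 bladder and 32.9, 26.7 and 24.7 in E18.5 urethral libraries (log2 difference -3.93 ± 0.40, adjusted p = 1.99e-05). The secretion and co-receptor list had 3 of 9 tested genes higher in urethral and 0 in bladder mesenchyme at E14.5, 1 and 2 at E18.5, beside those shares. It held Porcn, the enzyme that attaches the lipid to Wnt proteins, which was higher at E18.5 in bladder mesenchyme (log2 difference 1.2 ± 0.23, adjusted p = 0.00126), and Tspan12, a co-receptor of Fzd4 for Norrin (log2 difference 1.59 ± 0.12, adjusted p = 5.95e-06 in the same comparison). Ndp, which encodes Norrin, measured 7.86, 12.1 and 8.17 CPM in E14.5 bladder, 48.2, 37.3 and 41 in E14.5 urethral, 5.53, 3.16 and 4.73 in E18.5 bladder and 17.9, 9.42 and 16.4 in E18.5 urethral libraries (log2 difference -2.17 ± 0.27, adjusted p = 0.000289 at E14.5, log2 difference -1.7 ± 0.28, adjusted p = 0.00049 at E18.5). Rspo2 had a log2 difference of -4.14 (E14.5 compartment) without E14.5 bladder replicate 1.

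Inside the cell, 7 of 24 listed transducers were higher in urethral and 0 in bladder mesenchyme at E14.5, 8 and 1 at E18.5, against 12.5% and 12.4% of all genes at E14.5 and 16.2% and 18.52% at E18.5. Tle4, a Groucho-type corepressor of Tcf and Lef factors, measured 35.7, 36 and 26.6 CPM in E14.5 bladder and 120.2, 111 and 153 in E14.5 urethral libraries (log2 difference -1.97 ± 0.15, adjusted p = 2.52e-05). Its E18.5 means were 41.9 ± 4.84 and 58.7 ± 2.47 CPM, and the change of its compartment difference was 1.48 ± 0.21, adjusted p = 0.00237. Pygo1, a beta-catenin cofactor, was lower at E18.5 in bladder mesenchyme (log2 difference -1.45 ± 0.15, adjusted p = 1.9e-05). Apc2, a neuronal relative of Apc, was higher in urethral mesenchyme at both stages (E14.5 log2 difference -1.55 ± 0.27, adjusted p = 0.00199, E18.5 log2 difference -2.14 ± 0.28, adjusted p = 0.000107). Of 13 planar polarity genes, 5 were higher in urethral and 0 in bladder mesenchyme at E14.5, 6 and 3 at E18.5, beside the same shares of all genes. Celsr3, an atypical cadherin of neurons, was among them (E14.5 log2 difference -1.9 ± 0.43, adjusted p = 0.00806, E18.5 log2 difference -3.56 ± 0.46, adjusted p = 0.000123), and so were its relative Celsr2 (log2 difference -1.24 ± 0.20, adjusted p = 0.00046 at E18.5) and Daam2, a Dishevelled-binding formin (log2 difference -1.51 ± 0.16, adjusted p = 2.48e-05 at E18.5). All 7 listed neuronal markers were higher in urethral mesenchyme at both stages. They summed to 53.5 to 128 CPM in E18.5 bladder and 532 to 1458 in E18.5 urethral libraries, and their part in the levels of Apc2 and Celsr3 was not tested. Celsr3 had a log2 difference of -2.52 (E14.5 compartment) without E14.5 bladder replicate 1.

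Of 13 tested further response genes, 5 were higher in urethral and 2 in bladder mesenchyme at E14.5, 6 and 0 at E18.5, against 12.5% and 12.4% of all genes at E14.5 and 16.2% and 18.52% at E18.5. Sp8, a zinc finger relative of Sp5, measured 0.639, 0 and 0 CPM in E14.5 bladder, 9.37, 6.93 and 9.21 in E14.5 urethral, 0, 0.482 and 0.544 in E18.5 bladder and 14.9, 11.7 and 14.5 in E18.5 urethral libraries (E14.5 log2 difference -5.34 ± 0.96, adjusted p = 0.00283, E18.5 log2 difference -5.32 ± 0.91, adjusted p = 0.000884). Twist1, a mesenchymal transcription factor, measured 15.9, 14.9 and 15.9 CPM in E14.5 bladder and 121, 42.2 and 80.6 in E14.5 urethral libraries (log2 difference -2.38 ± 0.31, adjusted p = 0.000436), then 7.21, 11.1 and 7.42 CPM in E18.5 bladder and 52.5, 42.3 and 38.6 in E18.5 urethral libraries (log2 difference -2.38 ± 0.32, adjusted p = 0.000154). Bambi, a decoy receptor for TGF-beta ligands, was lower at E18.5 in bladder mesenchyme (log2 difference -2.16 ± 0.28, adjusted p = 9.65e-05). The direction of Sp8 and Twist1 was that of Axin2, Lef1 and Sp5, and opposite to that of Nkd1. Bambi and Myc had the direction of Nkd1 at E14.5. Bambi measured 136, 206 and 217 CPM in E14.5 bladder and 44.4, 106 and 80.9 in E14.5 urethral libraries, and Myc averaged 62.9 and 32.9 CPM. Without E14.5 bladder replicate 1 both remaining E14.5 bladder libraries were at 0 for Sp8, and no fold is given. Sp8 had a log2 difference of -4.74 (E14.5 compartment) without E14.5 bladder replicate 2. Sp8 had a log2 difference of -4.72 (E18.5 compartment) without E18.5 bladder replicate 1. Sp8 had a log2 difference of -5.99 (E18.5 compartment) without E18.5 bladder replicate 3.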

How the data were processed

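Poly(A) RNA of 12 samples was sequenced as 100 bp read pairs, per the labels. Reads were aligned to GRCm38 with HISAT2 2.2.1 and handled with SAMtools 1.9, per the submitters' processing notes. The authors deposited raw counts per gene, 1 table for each stage. How genes were counted, with which annotation and whether by strand is not given in the sources used here. Even counts predominate among low values, so both reads of a pair appear to have been counted, and counting intervals are then too narrow.

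The tables were joined over 55228 shared genes. Genes passing edgeR's filterByExpr (minimum count 10) were normalised by TMM and fitted with edgeR 4.0.16 (robust quasi-likelihood F test) in 1 model of 4 group means over all 12 libraries, with 8 residual degrees of freedom. Calls need a Benjamini-Hochberg adjusted p under 0.05 within a comparison. DESeq2 1.42.0, limma-voom (limma 3.58.1), median-ratio scaling, 2 other filters, fits of the compared libraries alone, each library left out, replicate 1 of both E14.5 groups left out, and a replicate block were alternatives. Members with a call and at least 2 CPM in their highest group, and up to 3 genes per pathway list by size of difference among called genes of at least 5 CPM, are described in full. Wnt9b, Wnt7a, Wnt9a, Fzd8 and Notum fall outside it and are given more briefly. Members and lists were chosen with earlier results of these data known.

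Same-numbered bladder and urethral libraries of E18.5 deviated together from their group means (r = 0.252, 0.200 and 0.423 for replicates 1, 2 and 3). The numbers, which come from the labels, were taken to pair them in the replicate block only. Where the block is not named, adjusted p comes from a fit without it. On simulated counts with known changes, the fit recovered 79% of 4-fold and 40% of 2-fold changes in the E14.5 compartment comparison (18488 genes). For the change between stages it recovered 57% and 12% (18492 genes). False calls were 2.46% and 4.17% of the calls. Far fewer genes were changed in the simulation than were called in the data, so these shares do not measure recovery in the data.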

Additional observations from a re-analysis of the deposited data

Results flagged for a closer look

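For 11 members the bladder to urethral difference itself differed between E14.5 and E18.5, by the stage-by-compartment term of the edgeR model. All 11 were also called with the replicate block, which added Wnt4 (adjusted p = 0.012), Fzd1 (adjusted p = 0.0495) and Fzd9 (adjusted p = 0.0322). The change, E18.5 minus E14.5 on the log2 scale, was 3.56 ± 0.76, adjusted p = 0.0151 for Wnt10a, 3.27 ± 0.54, adjusted p = 0.00413 for Wnt10b and 2.63 ± 0.51, adjusted p = 0.0108 for Nkd2. It was 1.87 ± 0.53, adjusted p = 0.0486 for Wnt6, 1.62 ± 0.32, adjusted p = 0.00929 for Fzd6, 1.61 ± 0.27, adjusted p = 0.0045 for Ror1 and 1.32 ± 0.22, adjusted p = 0.00412 for Znrf3. Smaller changes in the same direction were 1.18 ± 0.29, adjusted p = 0.0262 for Fzd5, 1.1 ± 0.28, adjusted p = 0.0326 for Wnt2b and 0.92 ± 0.23, adjusted p = 0.0254 for Nkd1. Wnt5b changed the other way, by -1.46 ± 0.25, adjusted p = 0.00444. The change came with a called rise in bladder mesenchyme for Wnt10a, Wnt10b, Wnt6, Fzd6, Fzd5, Nkd1, Nkd2 and Znrf3, with a fall in both compartments for Ror1, with a fall in urethral mesenchyme for Wnt2b, and with a fall in bladder mesenchyme for Wnt5b. Epithelial markers summed to 317 to 1779 CPM in E14.5 bladder and 10330 to 13601 CPM in E18.5 bladder libraries, and their part in these changes was not tested.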

How the results depend on the processing

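No member changed direction past the threshold under any of the alternatives run. With 1 library left out, the number of called members ranged from 17 to 23 for the E14.5 compartment comparison, 15 to 22 for that of E18.5, 16 to 22 for the bladder stage comparison, 8 to 20 for the urethral one and 7 to 16 for the change between stages. Under the other alternatives these counts stayed within 1.5 times 19, 20, 19, 17 and 11. Counts over all genes also moved by over 1.5 times. The E14.5 compartment count of 4677 was 3022 with the compared libraries alone, 3077 and 2721 without bladder replicate 2 or 3, and 2991 without urethral replicate 3. The urethral stage count of 4586 was 2351 without E14.5 urethral replicate 3, and 2706 and 2722 without E18.5 urethral replicate 2 or 3. The count of 1637 changes between stages was 2578 with DESeq2, 2526 without replicate 1 of both E14.5 groups, 999 without E14.5 bladder replicate 3, 1070 without E14.5 urethral replicate 3 or E18.5 bladder replicate 1, and 1041, 1002 and 1013 without E18.5 urethral replicate 1, 2 or 3. The cause was not tested. Notum's E14.5 compartment difference, not called, ranged from -0.43 to 0.86.

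With the replicate block, 21 members were called at E14.5, 20 in the bladder stage comparison, 19 in the urethral one and 14 for the change between stages. The block added Sp5 and Wnt4 at E14.5 (adjusted p = 0.0183 and 0.00496), Wnt5a and Wnt9a in the bladder stage comparison (0.0101 and 0.022), Wnt9a, Ror2, Fzd6 and Wnt10b in the urethral one (0.046, 0.0326, 0.0458 and 0.0432), and Wnt4, Fzd1 and Fzd9 for the change between stages. It lost Wnt11 in the bladder stage comparison (0.0758) and Fzd2 and Wnt3 in the urethral one (0.0522 and 0.0601). Each stage came from other litters, so equal numbers at different stages pair no libraries. The stage calls that the block added or lost therefore rest on a shared number only. At E18.5 the blocked fit called 19 members, of which 17 were among the 20 called without it, and calls that it changed there are given beside the results. At E14.5 the numbers correlated at 0.256, -0.055 and 0.230. Bladder replicates 1 and 3 correlated best with their own number but replicate 2 with urethral replicate 3. With 3 libraries per group, these correlations cannot decide whether the numbers pair libraries at E14.5.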
